A study of Mus musculus with 17 samples.

Results

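Glycolysis and hypoxia response genes are a set of 33 named genes among the 41709 gene symbols of a transcript abundance table made from 17 single mouse embryos. The members were taken by symbol, with earlier results of these data known. They comprise 2 glucose transporter genes, 15 genes of glycolytic enzymes, 4 genes that make or carry lactate, 4 genes of enzymes that set the flow through the pathway and 8 genes of the hypoxia response. RNA was sequenced from whole C57BL/6J embryos in 4 groups, and abundance is given as TPM (transcript abundance per length, with an equal sum for every embryo). Disp1_CS_INDEL (4 embryos) and Disp1_WT (4 embryos) were collected at E9.5, where Disp1_CS_INDEL embryos carried a CS allele from Disp1CS/+ mothers and an INDEL allele from Disp1INDEL/+ fathers, and Disp1_WT embryos were wild type. Myo10_m1J (5 embryos) and Myo10_WT (4 embryos) were collected at E8.5 from Myo10m1J/+ intercrosses and were homozygous for the m1J allele or for the wild-type allele of Myo10. Disp1 encodes a membrane protein that releases Hedgehog ligands, and Myo10 encodes an unconventional myosin of filopodia. Each library came from 1 whole embryo, and the labels name no litter, so p-values measure the spread between these embryos.

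Glycolysis splits glucose into pyruvate in the cytoplasm and yields ATP without oxygen, and lactate dehydrogenase turns pyruvate into lactate to keep the pathway running. When oxygen is low, the prolyl hydroxylases of the EGLN family no longer mark HIF-1 alpha for destruction, and the stabilised factor binds the hypoxia response element near genes for glucose uptake, glycolysis, lactate export and blood vessel growth. Early postimplantation mouse embryos are known for high glucose use with much lactate release, and mitochondrial oxidation gains weight once the circulation and the chorioallantoic placenta work.

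The core of the hypoxia response element reads ACGTG or GCGTG, and it was sought on either strand in the 250 bases upstream of each RefSeq gene start (GRCm38.p6). Windows were found for 31 of the 33 members, 43 windows in all. At least 1 core lay in 35 of these 43 windows (81.4%), and in 28 of 31 members (90.3%). Among genes tested for the Disp1 or Myo10 effect the shares were 55.2% of windows and 61.4% of genes, and over all genes listed they were 38.6% and 41.5%. ACGTG alone was present in 48.8% of the members' windows, against 21.4% of the windows of tested genes. The members' windows held 15.7 CpG dinucleotides on average and those of the tested genes 16.4. The core sequence CACGTG reads as ACGTG on both strands, counts as 2 matches, and is at the same time the E-box bound by other factors. Promoters are shown for Pgk1 and for Pdk1, Bnip3 and Ldha, whose levels were correlated with that of Pgk1 among E8.5 embryos (described further on). The relation of Ldha with Pgk1 depended on the scaling and the measure, and Pdk1, Bnip3 and Ldha were not compared with one another. Each core is in capitals on the gene strand, where CACGT and CACGC are ACGTG and GCGTG on the opposite strand. The promoters are chrX:106186850-106187099 (plus strand) for Pgk1, chr7:46845554-46845803 (plus strand) for Ldha, chr2:71872974-71873223 (plus strand) for Pdk1 and chr7:138909507-138909756 (minus strand) for Bnip3, each printed 5′ to 3′ up to the base before the gene start.
Pgk1: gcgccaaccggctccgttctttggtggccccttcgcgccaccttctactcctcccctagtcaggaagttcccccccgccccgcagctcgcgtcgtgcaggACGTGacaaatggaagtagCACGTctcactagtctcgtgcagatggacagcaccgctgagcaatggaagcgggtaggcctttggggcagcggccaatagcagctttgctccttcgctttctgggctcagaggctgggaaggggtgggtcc
Ldha: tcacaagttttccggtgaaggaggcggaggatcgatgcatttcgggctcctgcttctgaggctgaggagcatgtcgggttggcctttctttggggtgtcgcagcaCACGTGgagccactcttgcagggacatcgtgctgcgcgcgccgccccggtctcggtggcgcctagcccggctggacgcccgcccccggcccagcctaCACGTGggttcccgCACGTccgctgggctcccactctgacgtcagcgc
Pdk1: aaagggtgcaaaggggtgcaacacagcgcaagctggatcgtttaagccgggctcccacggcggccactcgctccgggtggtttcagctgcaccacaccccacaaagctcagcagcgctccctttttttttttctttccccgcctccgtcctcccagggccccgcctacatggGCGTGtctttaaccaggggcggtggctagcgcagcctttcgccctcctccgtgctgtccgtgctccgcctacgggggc
Bnip3: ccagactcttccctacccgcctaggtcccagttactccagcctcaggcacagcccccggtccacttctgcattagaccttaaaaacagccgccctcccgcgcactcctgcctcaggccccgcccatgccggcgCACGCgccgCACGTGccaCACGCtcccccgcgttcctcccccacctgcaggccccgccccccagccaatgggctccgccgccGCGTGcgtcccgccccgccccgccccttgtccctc
The printed windows of Ldha and Bnip3 each carried 5 matches. Among the windows of tested genes 1.81% carried 5 or more. The Pgk1 window held 2 matches, both ACGTG, and the printed Pdk1 window a single GCGTG. Pdk1 had another window with 0 matches, and Ldha another with 1 match, a GCGTG. These were left out for lack of a match or of ACGTG, so the printed Pdk1 and Ldha windows were chosen by their matches. A match is a description of the letters and not evidence of binding.

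The targeted genes were read first. Myo10 stood at 4.35, 4.31, 3.59, 2.16 and 3.64 TPM in Myo10_m1J embryos and at 33.9, 26.6, 23.0 and 19.9 TPM in Myo10_WT embryos, a difference of -2.54 on the log2(TPM + 1) scale (SE 0.18, limma adjusted p = 6.68e-05). Disp1 stood at 16.3, 14.8, 14.5 and 11.6 TPM in Disp1_CS_INDEL embryos and at 18.4, 19.3, 17.2 and 15.3 TPM in Disp1_WT embryos, which did not pass (-0.28, SE 0.11, limma adjusted p = 1.00). The libraries of the 2 ages were made up differently. Small structural RNAs such as that of the signal recognition particle took 0.00527 to 0.0132% of the TPM at E9.5 and 29.7 to 44.5% at E8.5, and replication-dependent histone genes 0.0187 to 0.0240% and 6.79 to 8.66%. The labels give the same library protocol for all embryos. Since TPM sums to 1000000 in every library, these shares lower all other genes at E8.5, and age, parental cross, experiment and library composition cannot be told apart. Of 15 primitive erythroid markers all 15 reached 1 TPM at E9.5, with summed levels of 28503 to 56971 TPM in Disp1_CS_INDEL and 36312 to 48362 TPM in Disp1_WT. In Myo10_m1J the sum ranged over 102 to 5326 TPM and in Myo10_WT over 326 to 1981 TPM. Transcripts of the tail bud were low in Disp1_CS_INDEL embryo 1 and Disp1_WT embryo 3 (mean log2 of 9 markers 1.57 and 1.41, against 3.63 to 4.23 in the other E9.5 embryos). The same Disp1_WT embryo 3 was highest for yolk sac endoderm markers at E9.5 (mean log2 5.60, against 1.83 to 2.61) and held the top summed level of 10 decidua and trophoblast markers, 740 TPM. Of these 10 markers 3 reached 1 TPM in Disp1_WT and 5 in Myo10_m1J. At E8.5 their mean was highest in Myo10_m1J embryo 2 (log2 2.13, against 0.0754 to 1.09 in the other E8.5 embryos).

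The members differed widely in level. Together they made up 1.66 to 1.77% of the TPM in Disp1_CS_INDEL embryos, 1.73 to 1.90% in Disp1_WT, 1.04 to 1.16% in Myo10_m1J and 1.04 to 1.21% in Myo10_WT. After structural RNAs were taken out of the total, the means were 1.77% ± 0.0832 at E9.5 (SD, n = 8) and 1.74% ± 0.0860 at E8.5 (SD, n = 9). With histone genes taken out as well they were 1.77% ± 0.0832 and 1.99% ± 0.109. These shares include Eno1b, which averaged 3205 TPM in Disp1_CS_INDEL, 3794 TPM in Disp1_WT, 2.69 TPM in Myo10_m1J and 2.40 TPM in Myo10_WT. The enzymes of the lower pathway led. Pkm, pyruvate kinase, averaged 2658 ± 189 TPM in Disp1_CS_INDEL, 2678 ± 131 TPM in Disp1_WT, 1702 ± 81.0 TPM in Myo10_m1J and 1751 ± 96.6 TPM in Myo10_WT (SD, n = 4, 4, 5 and 4). Ldha, the lactate-forming dehydrogenase subunit, averaged 2127, 2267, 1504 and 1441 TPM in the same order of groups, and Pgam1, phosphoglycerate mutase, 1896, 1941, 1266 and 1298 TPM. At the low end stood Aldoc, the brain form of aldolase, at 2.76 to 10.2 TPM, and Pfkp, the platelet form of phosphofructokinase, at 3.35 to 7.94 TPM over all embryos. Eno2, neuronal enolase, stayed between 0.0921 and 0.984 TPM and fell below the filter of at least 1 TPM in at least 4 libraries, so 32 of the 33 members were tested in each comparison. The main aldolase gene Aldoa, which is no member, is listed in the table as Aldoa_1 at 1227 to 1478 TPM at E9.5 and 886 to 1081 TPM at E8.5.

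**Figure D1:**
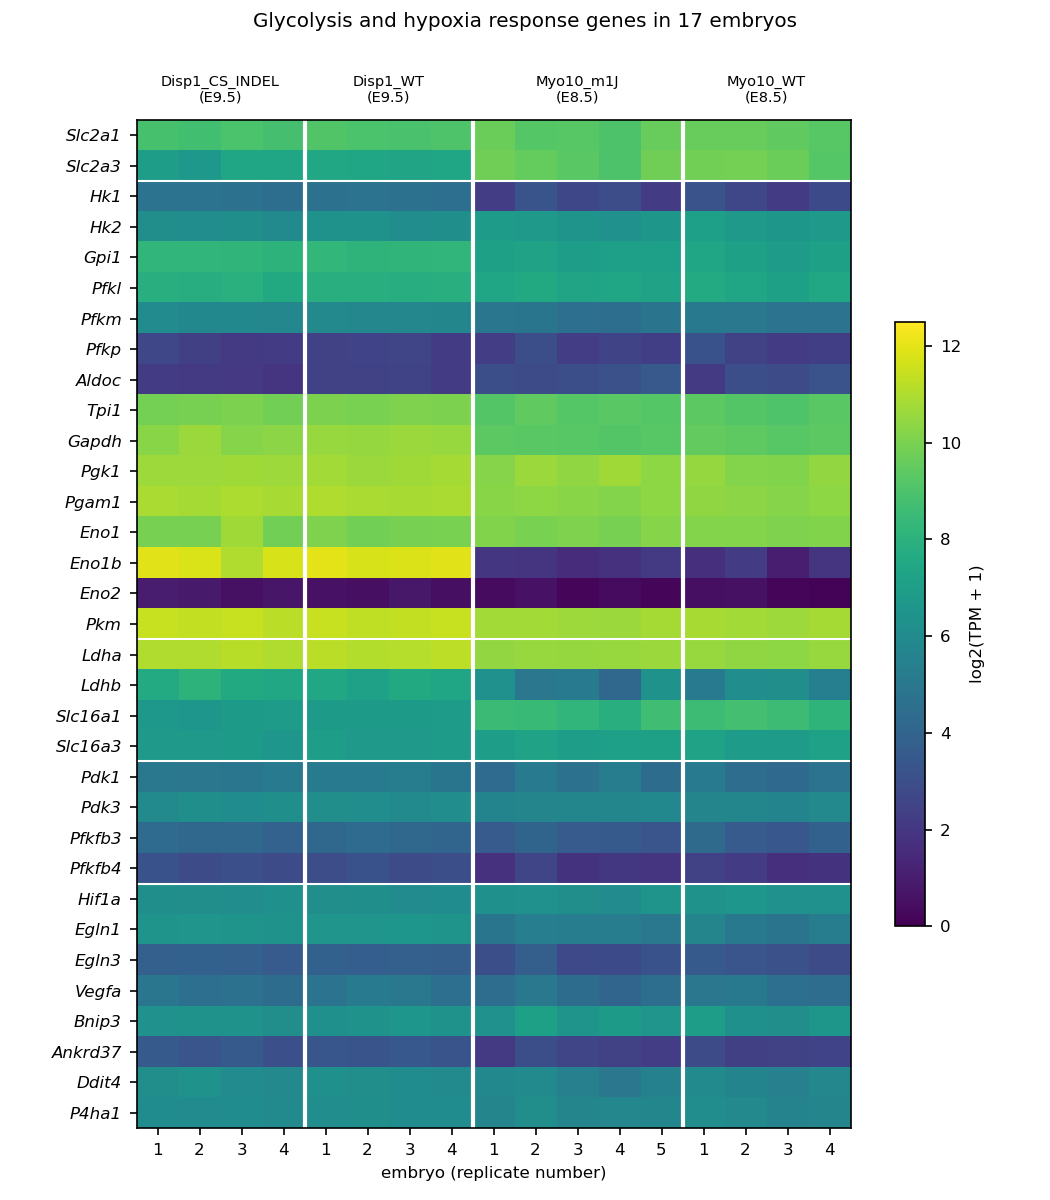
Levels of the 33 members as log2(TPM + 1) (colour) in each of the 17 embryos (columns, by group and replicate number), with horizontal white lines between glucose uptake, glycolytic enzymes, lactate, control of flux and hypoxia response. Eno1b stands at 2033 to 4016 TPM in the 8 E9.5 embryos and at 1.04 to 3.49 TPM in the 9 E8.5 embryos, while most other members keep a similar level within an age.

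Eno1 and Eno1b, both enolase genes, cannot be fully read apart. Of all 100-base windows of the Eno1 transcript 54.2% occur in the Eno1b transcript, and 61.8% of the Eno1b windows occur in Eno1 (GENCODE vM21 sequences), so that a read may fit both. Eno1b stood at 3862, 3497, 2033 and 3427 TPM in Disp1_CS_INDEL, at 4016, 3467, 3722 and 3971 TPM in Disp1_WT, at 2.98, 2.67, 1.98, 2.42 and 3.38 TPM in Myo10_m1J and at 2.21, 3.49, 1.04 and 2.86 TPM in Myo10_WT. Eno1 stood at 963, 975, 1684 and 906 TPM in Disp1_CS_INDEL, at 1084, 922, 988 and 1027 TPM in Disp1_WT and at 979 to 1214 TPM over the E8.5 embryos. Disp1_CS_INDEL embryo 3, with the highest Eno1 of all embryos, had the lowest Eno1b of its age. Added together, the genes gave 4825, 4472, 3716 and 4334 TPM in Disp1_CS_INDEL, 5100, 4389, 4710 and 4998 TPM in Disp1_WT, and 981 to 1218 TPM at E8.5, so the step between the ages stays in the sum. How far the assignment of shared reads differed between the ages was not tested. Processed pseudogenes of Gapdh, Pgk1, Ldha, Tpi1 and Pgam1 may likewise take or give reads, and the levels of these genes carry that uncertainty.

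The Disp1 comparison asked whether glycolysis and hypoxia transcripts differed between Disp1_CS_INDEL and Disp1_WT embryos at E9.5. None of the 32 members tested passed (limma, Benjamini-Hochberg adjusted p under 0.05 over 13294 genes), beside a background of 0.0301% of all genes called. At an unadjusted p under 0.05 there was 1 higher and 4 lower member, where 1.03% of all genes were higher and 1.23% lower. In bulk RNA a lower level can mean fewer cells of a type or less RNA per cell, which cannot be told apart here.
Aldoc, which splits fructose bisphosphate, stood at 3.44, 3.34, 3.20 and 2.76 TPM in Disp1_CS_INDEL and at 4.41, 4.45, 4.99 and 3.62 TPM in Disp1_WT. Every Disp1_CS_INDEL embryo lay below every Disp1_WT embryo, which among all genes held for 0.654% in this direction and 0.895% in the other, and Aldoc was the only member tested whose groups did not overlap. The difference was -0.35 (SE 0.10, limma adjusted p = 1.00, exact two-sided permutation p = 0.0286, the smallest that 4 against 4 embryos can give).
Slc2a1, the facilitative glucose transporter GLUT1, stood at 465, 420, 495 and 445 TPM in Disp1_CS_INDEL and at 550, 494, 487 and 526 TPM in Disp1_WT. Only embryo 3 of Disp1_CS_INDEL reached into the range of Disp1_WT, and the difference was -0.17 (SE 0.060, limma adjusted p = 1.00). Slc2a3, the high-affinity transporter GLUT3, was at 122, 99.8, 168 and 165 TPM in Disp1_CS_INDEL and at 170, 162, 155 and 165 TPM in Disp1_WT, with 2 embryos of Disp1_CS_INDEL below all others (-0.26). Gapdh, the oxidising enzyme in mid-pathway, stood at 1236, 1557, 1190 and 1283 TPM in Disp1_CS_INDEL and at 1497, 1473, 1599 and 1540 TPM in Disp1_WT. Here 3 of the 4 Disp1_CS_INDEL embryos lay below all Disp1_WT embryos, and embryo 2 lay among them (-0.22, SE 0.077, limma adjusted p = 1.00).
Ldhb, the dehydrogenase subunit that favours lactate oxidation, was the member on the higher side, at 202, 271, 193 and 178 TPM in Disp1_CS_INDEL and 181, 142, 189 and 165 TPM in Disp1_WT. The groups overlapped through Disp1_CS_INDEL embryo 4 (0.31, SE 0.13, limma adjusted p = 1.00), and without Disp1_CS_INDEL embryo 2, the highest, the difference was 0.18. Slc16a3, the lactate exporter MCT4, was at 104, 103, 110 and 94.9 TPM in Disp1_CS_INDEL and at 122, 108, 108 and 115 TPM in Disp1_WT (-0.13, SE 0.059, limma adjusted p = 1.00). Embryo 3 of Disp1_CS_INDEL overlapped Disp1_WT.
The 32 members tested had a median difference of -0.056, with 26 below 0, where all 13294 genes had a median of 0.0097. By role, 12 of 14 enzymes, 2 of 2 glucose transporters, 3 of 4 lactate genes, 3 of 4 flux genes and 6 of 8 hypoxia genes had negative values, none passing. Hif1a, the oxygen-regulated subunit of HIF-1, gave 0.06, and Vegfa, the vascular growth factor, -0.21. Without the embryos with low tail bud transcripts (Disp1_CS_INDEL 1 and Disp1_WT 3), the median was -0.066, Slc2a1 -0.21 and Aldoc -0.33, and again no member passed.

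**Figure D2:**
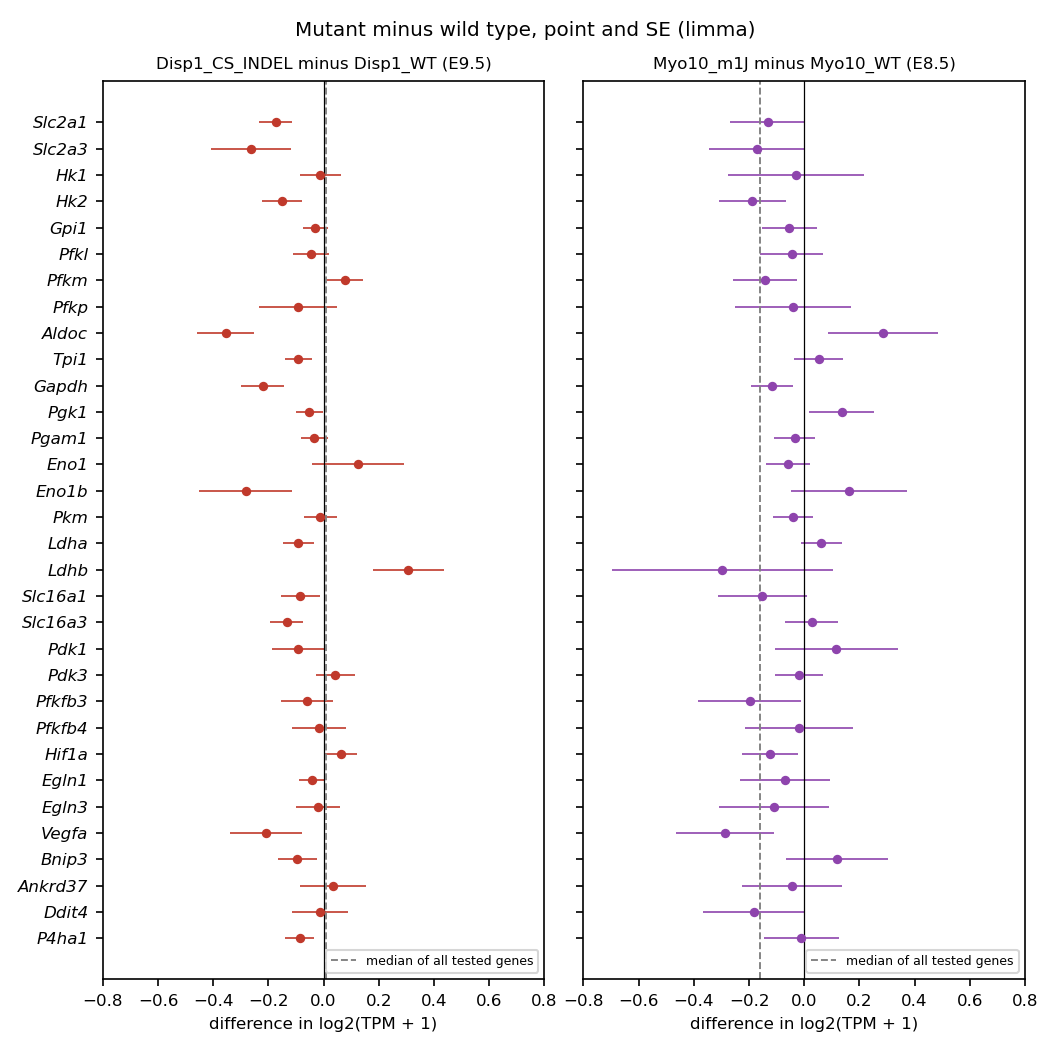
Difference in log2(TPM + 1) for each of the 32 members tested, Disp1_CS_INDEL minus Disp1_WT at E9.5 (left) and Myo10_m1J minus Myo10_WT at E8.5 (right), point and SE from limma, with the median of all tested genes as a dashed line (0.0097 and -0.16). At left 26 of 32 points lie below 0 and at right 26 of 32 lie above the dashed line, and no point passed the test in either comparison.

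The Myo10 comparison put the same question to Myo10_m1J and Myo10_WT embryos at E8.5. None of the 32 members tested passed over 12560 genes, beside a background of 0.00796%, and none had an unadjusted p under 0.05, where 0.342% of all genes were higher and 6.46% lower. No member tested had groups that did not overlap (0.0318% of all genes higher, 0.963% lower).
Vegfa had the smallest p, at 20.9, 31.0, 20.2, 15.9 and 21.7 TPM in Myo10_m1J and 30.2, 32.7, 22.9 and 21.3 TPM in Myo10_WT. Myo10_m1J embryo 2 lay near the top of the range of Myo10_WT, and the difference was -0.29 (SE 0.18, limma adjusted p = 0.473) as deposited and -0.096 after the median-of-ratios scaling described next. Hk2, the inducible hexokinase that traps glucose in the cell, stood at 115, 105, 88.5, 80.2 and 98.2 TPM in Myo10_m1J and at 133, 107, 95.9 and 108 TPM in Myo10_WT, and the ranges overlapped widely. The value of Hk2 was -0.19 (SE 0.12), -0.098 without Myo10_WT embryo 1, and 0.0089 after median-of-ratios scaling, in which each library is divided by the median ratio of its genes to their geometric mean. Gapdh likewise changed sign with the scaling. It stood at 658, 626, 599, 562 and 618 TPM in Myo10_m1J and at 724, 665, 614 and 654 TPM in Myo10_WT (-0.12, SE 0.076, as deposited and 0.08 after scaling). Hif1a stood at 77.7, 80.0, 72.0, 65.0 and 87.0 TPM in Myo10_m1J and at 80.5, 94.6, 79.6 and 77.9 TPM in Myo10_WT (-0.12, SE 0.10, as deposited and 0.07 after scaling).
Aldoc lay on the other side, at 7.10, 6.23, 7.03, 7.63 and 10.2 TPM in Myo10_m1J and at 3.43, 6.92, 6.41 and 8.24 TPM in Myo10_WT (0.29, SE 0.20, limma adjusted p = 0.473, and 0.45 after scaling). The lowest embryo was Myo10_WT 1 and the highest Myo10_m1J 5, with the rest mixed, and without Myo10_WT embryo 1 the difference was 0.066.
The 32 members tested had a median of -0.045 as deposited, above the median of -0.16 over all genes, and of 0.14 after scaling, where all genes had 0.015. Structural RNAs took 38.1% ± 4.47 of the TPM in Myo10_m1J (SD, n = 5) and 33.7% ± 3.49 in Myo10_WT (SD, n = 4). With these RNAs left out of the total, the median of all genes was -0.074, over the 13355 genes that then entered. Beyond this removal, the part of the structural RNAs in that median was not tested. The 14 enzymes tested were positive in 4 cases as deposited and in 14 after scaling, so no direction is given for them.

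The difference between the mutant effects, Myo10_m1J over Myo10_WT minus Disp1_CS_INDEL over Disp1_WT, was tested in all 17 libraries together. No member tested passed over 13910 genes, beside 0.0216% called, and 1 had an unadjusted p under 0.05 on the higher side and none on the lower, where 0.266% and 4.69% of all genes did. That member was Aldoc, with a difference of effects of 0.64 (SE 0.25, limma unadjusted p = 0.0191, adjusted p = 0.586), and of 0.42 without Myo10_WT embryo 1.

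The ages were compared in 2 pairs of groups with no embryo in common, Disp1_CS_INDEL against Myo10_m1J and Disp1_WT against Myo10_WT. As deposited, E9.5 mutants had 18 members higher and 6 lower than E8.5 mutants among the 32 tested (background 77.5% of 13359 genes higher and 8.28% lower), and E9.5 wild types had 21 higher and 6 lower than E8.5 wild types (background 69.4% of 13397 genes higher and 10.2% lower). The groups did not overlap for 15 members higher and 6 lower in the mutants (72.5% and 6.26% of all genes) and for 17 higher and 5 lower in the wild types (66.1% and 7.96%). The members' medians were 0.48 and 0.44, below the medians of all genes at 0.78 and 0.62. After median-of-ratios scaling, which brought the medians of all genes to 0.0054 and 0.017, the split turned to 6 higher and 19 lower in the mutants (background 36.5% and 36.1%) and to 8 higher and 15 lower in the wild types (background 37% and 35.3%). The members' medians were then -0.40 and -0.22. Direction is therefore given only for the 10 members that passed in the same direction in both pairs and under both scalings. Higher at E9.5 were 6 of them, namely Hk1, Gpi1, Pfkm, Eno1b, Ldhb and Egln1, and lower were 4, namely Slc2a1, Slc2a3, Hk2 and Slc16a1. The share of all genes that meet this rule was not computed, so the count of 10 is not read as particular to the members. Since a read may fit both Eno1 and Eno1b, Eno1b is read only through their sum. The difference of the sum was 2.00 in the mutants (SE 0.092, limma adjusted p = 1.80e-09) and 2.09 in the wild types (SE 0.062, limma adjusted p = 3.51e-10) as deposited, and 1.12 and 1.41 after scaling.

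Among glucose transporters, Slc2a3 at E9.5 stood between 99.8 and 168 TPM in Disp1_CS_INDEL and between 155 and 170 TPM in Disp1_WT. At E8.5 it stood at 881, 751, 620, 510 and 877 TPM in Myo10_m1J and 901, 936, 833 and 592 TPM in Myo10_WT, and no embryo of either age came near the range of the other. The difference was -2.38 in the mutants (SE 0.19, limma adjusted p = 1.22e-07) and -2.29 in the wild types (SE 0.12, limma adjusted p = 4.62e-08), and -3.26 and -2.97 after scaling. Slc2a1 was also lower at E9.5, by less, at -0.51 in the mutants and -0.47 in the wild types, and -1.39 and -1.15 after scaling. In E8.5 embryos it stood at 819, 587, 612, 510 and 776 TPM in Myo10_m1J and at 783, 768, 702 and 613 TPM in Myo10_WT.
Hexokinases moved apart. Hk1, the widely expressed form bound to mitochondria, stood at 26.2, 26.4, 24.4 and 21.8 TPM in Disp1_CS_INDEL, at 25.4, 26.0, 25.2 and 23.0 TPM in Disp1_WT, at 3.91, 8.64, 5.44, 6.87 and 3.44 TPM in Myo10_m1J and at 8.28, 5.22, 3.52 and 5.93 TPM in Myo10_WT. All E9.5 embryos lay above all E8.5 embryos, by 2.00 in the mutants (SE 0.20, limma adjusted p = 1.01e-06) and 1.99 in the wild types (SE 0.18, limma adjusted p = 1.90e-06), and by 1.20 and 1.37 after scaling. Hk2 was lower, by -0.48 and -0.52 as deposited and -1.35 and -1.19 after scaling.
Gpi1, glucose phosphate isomerase, averaged 287 ± 11.4 TPM in Disp1_CS_INDEL and 134 ± 8.13 TPM in Myo10_m1J (SD, n = 4 and 5). Disp1_WT averaged 293 ± 11.4 TPM and Myo10_WT 140 ± 19.7 TPM (SD, n = 4 each). Its difference was 1.09 in the mutants (SE 0.069, limma adjusted p = 2.35e-08) and 1.07 in the wild types (SE 0.090, limma adjusted p = 9.87e-07), and 0.22 and 0.39 after scaling. Pfkm, the muscle form of phosphofructokinase, the committing enzyme of the pathway, was at 53.4 to 65.0 TPM in Disp1_CS_INDEL, 52.5 to 58.0 TPM in Disp1_WT, 22.2 to 29.4 TPM in Myo10_m1J and 25.8 to 31.8 TPM in Myo10_WT. Its differences were 1.14 (SE 0.10, limma adjusted p = 4.21e-07) and 0.92 (SE 0.089, limma adjusted p = 2.87e-06), and 0.28 and 0.25 after scaling. The liver form Pfkl changed sign, from 0.45 in both pairs as deposited to -0.42 in the mutants and -0.23 in the wild types after scaling.
In the lower pathway, Gapdh was higher at E9.5 as deposited, by 1.10 (SE 0.087, limma adjusted p = 1.35e-07) and 1.20 (SE 0.062, limma adjusted p = 3.61e-08). After scaling Gapdh was 0.22 in the mutants (limma adjusted p = 0.0526) and 0.52 in the wild types (limma adjusted p = 3.63e-04). Tpi1, triose phosphate isomerase, was 0.68 and 0.82 as deposited, and after scaling -0.20 in the mutants and 0.14 in the wild types, neither of which passed. Pgk1, which makes the first ATP of the pathway, Pgam1, Pkm and Ldha had positive values as deposited and negative values after scaling in both pairs.
Among the lactate genes, Slc16a1, the lactate and pyruvate carrier MCT1, stood at 101, 93.5, 112 and 119 TPM in Disp1_CS_INDEL and 110, 112, 111 and 117 TPM in Disp1_WT. At E8.5 it stood at 369, 358, 296, 233 and 402 TPM in Myo10_m1J and 374, 432, 381 and 278 TPM in Myo10_WT, without overlap between the ages. The difference was -1.61 (SE 0.14, limma adjusted p = 3.82e-07) in the mutants and -1.68 (SE 0.11, limma adjusted p = 1.90e-07) in the wild types, and -2.48 and -2.35 after scaling. Ldhb was higher at E9.5, by 2.29 and 1.69 as deposited and by 1.42 and 1.01 after scaling, and its E8.5 embryos ranged from 17.9 to 85.3 TPM in Myo10_m1J and from 34.1 to 72.6 TPM in Myo10_WT.
In the hypoxia response, Egln1, the main oxygen sensor that hydroxylates HIF-1 alpha, stood at 88.5, 90.9, 88.6 and 82.9 TPM in Disp1_CS_INDEL and at 28.4, 40.2, 37.0, 36.8 and 30.8 TPM in Myo10_m1J. The wild types gave 92.2, 89.4, 93.6 and 86.3 TPM in Disp1_WT and 49.9, 32.2, 27.3 and 38.6 TPM in Myo10_WT. The difference was 1.33 (SE 0.10, limma adjusted p = 1.09e-07) in the mutants and 1.30 in the wild types, and 0.46 and 0.63 after scaling. Hif1a itself was -0.07 and -0.25 as deposited and -0.93 in both pairs after scaling, where both passed. Vegfa, Bnip3, a mitophagy receptor, and P4ha1, a collagen prolyl hydroxylase, passed as lower in both pairs after scaling (Vegfa at -0.69 in the mutants and -0.58 in the wild types), whereas as deposited Vegfa and Bnip3 passed in neither pair and P4ha1 passed as higher in the wild types. Ankrd37, a HIF target of little known function, Egln3, another prolyl hydroxylase of HIF alpha, and Ddit4, a brake on mTORC1, passed as higher in both pairs as deposited. After scaling Ankrd37 and Egln3 passed in neither pair and Ddit4 passed as lower in the wild types. Of the flux genes Pdk1 and Pdk3, which hold pyruvate back from mitochondria, and Pfkfb3 and Pfkfb4, which set the activator of phosphofructokinase, none passed in the same direction in both pairs under both scalings. Pdk3 passed in both pairs under both scalings but turned round, at 0.40 in the mutants and 0.34 in the wild types as deposited and -0.46 and -0.33 after scaling.

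**Figure D3:**
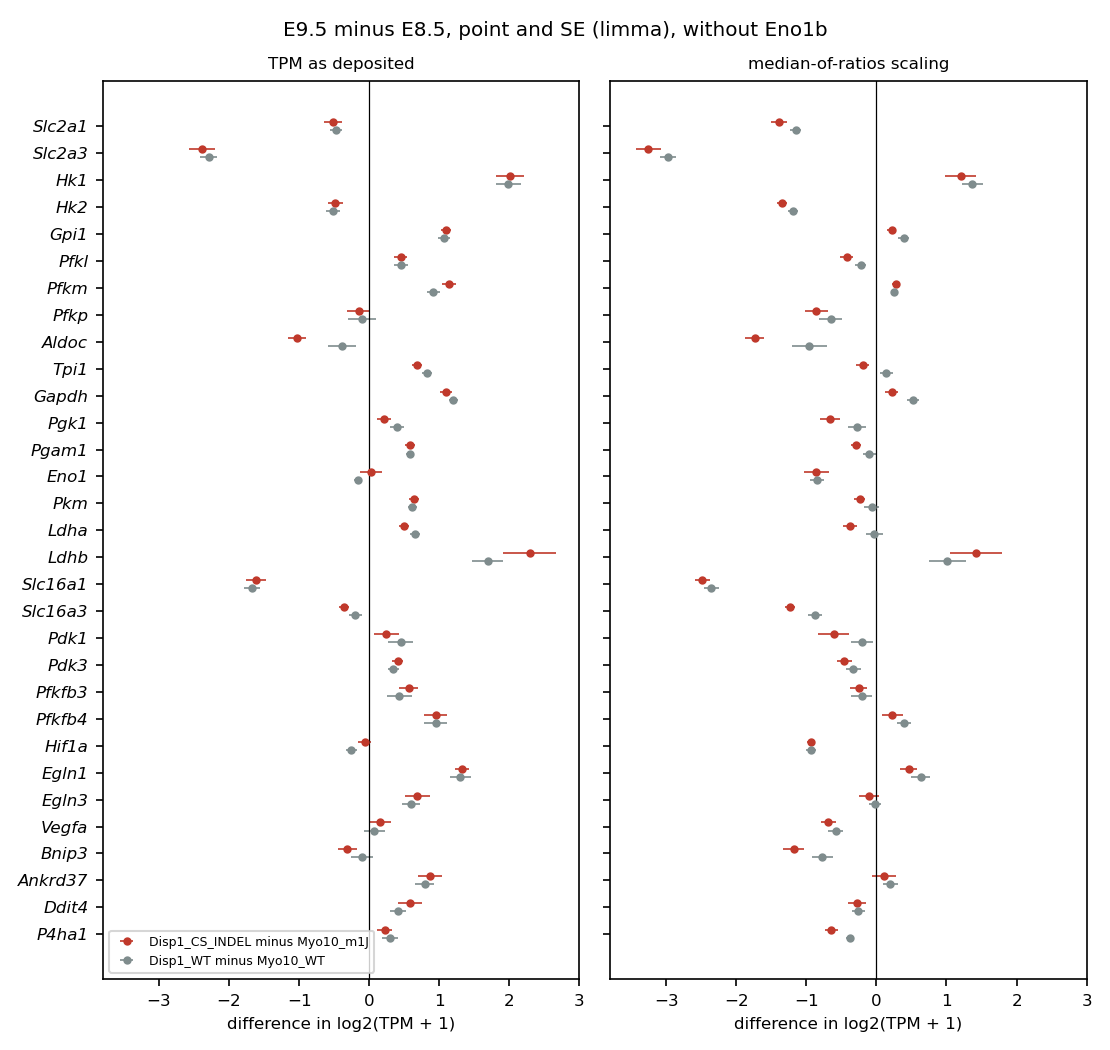
Difference in log2(TPM + 1) between E9.5 and E8.5 for 31 members, with Disp1_CS_INDEL minus Myo10_m1J in red and Disp1_WT minus Myo10_WT in grey, point and SE from limma, as deposited (left) and after median-of-ratios scaling (right). Eno1b is left out because its differences, 9.74 and 10.18 as deposited, lie off the scale. Slc2a3 and Slc16a1 lie far left and Hk1 and Ldhb far right of 0 under both scalings, while Pgk1, Ldha and Pkm cross 0.

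Ratios between genes of the same embryo do not depend on the scaling of the library, and 8 such shares were computed, chosen after the values were seen. That of Eno1b in the sum with Eno1 is among them and is not read, for the shared reads. GLUT3 (Slc2a3) supplied 23.1% ± 3.72 of the summed Slc2a1 and Slc2a3 transcripts in Disp1_CS_INDEL (SD, n = 4), 24.1% ± 0.462 in Disp1_WT (SD, n = 4), 52.3% ± 2.47 in Myo10_m1J (SD, n = 5) and 53.0% ± 2.63 in Myo10_WT (SD, n = 4). Hk1 made up 26.3% ± 1.10, 24.5% ± 1.42, 5.58% ± 2.20 and 4.81% ± 0.983 of the Hk1 and Hk2 sum in these groups. Ldhb made up 9.03% ± 1.75, 6.94% ± 0.723, 3.16% ± 1.92 and 3.68% ± 1.49 of the lactate dehydrogenase sum. In each of these the E9.5 and E8.5 embryos did not overlap. Slc16a1 held 50.7% ± 3.47, 49.9% ± 1.57, 71.0% ± 4.39 and 73.3% ± 5.61 of the Slc16a1 and Slc16a3 sum. Between the ages each of the 8 shares gave an exact two-sided permutation p of 0.0159 in the mutants and 0.0286 in the wild types, the smallest these group sizes allow, and 0.0571 after Benjamini-Hochberg adjustment over 32 tests, which does not pass. Between Disp1_CS_INDEL and Disp1_WT the smallest exact p was that of Ldhb (2.09 percentage points, exact permutation p = 0.0571, adjusted 0.108), and between Myo10_m1J and Myo10_WT all 8 had an exact p of 0.349 or more.

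**Figure D4:**
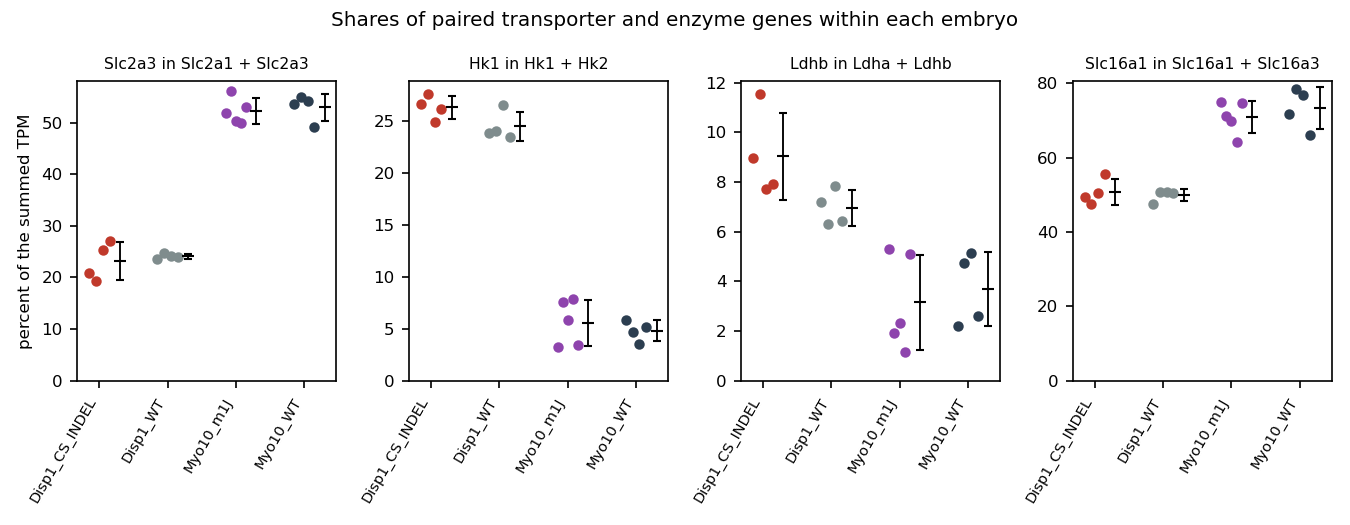
Share of Slc2a3, Hk1, Ldhb and Slc16a1 in the summed TPM of each pair of genes (percent, vertical axis from 0), a point for each embryo and mean with SD at its right, by group. The Slc2a3 share lies at 19.2 to 27.1% in the 8 E9.5 embryos and at 49.1 to 56.1% in the 9 E8.5 embryos, and the Hk1 share at 23.5 to 27.6% and 3.29 to 7.88%.

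Within an age, 5 pairs of measures were correlated across embryos as deviations of log2(TPM + 1) from the genotype mean, 10 relations in all. At E8.5 (n = 9 embryos) Pdk1 followed Pgk1. Pdk1 stood at 19.7, 35.7, 24.7, 37.1 and 20.4 TPM in Myo10_m1J and 35.5, 20.8, 18.3 and 26.3 TPM in Myo10_WT, where Pgk1 stood at 1192, 1555, 1354, 1681 and 1332 TPM and at 1483, 1154, 1111 and 1435 TPM. Pearson's r was 0.94 (exact permutation p = 3.47e-04, adjusted 0.00347) and Spearman's rho 0.95 (exact permutation p = 6.94e-04, adjusted 0.00694), and r was 0.90 without the 2 embryos farthest from the median of Pgk1. For Pgk1 and Bnip3 r was 0.88 (exact permutation p = 0.00937, adjusted 0.0312) and rho 0.88 (exact permutation p = 0.00764, adjusted 0.0255), and r was 0.89 without 2 embryos. For Pgk1 and Ldha r was 0.82 (exact permutation p = 0.0441, adjusted 0.110) and rho 0.78 (adjusted 0.0868), and r was 0.82 without 2 embryos. After scaling the values of r were 0.89, 0.82 and 0.90 for Pdk1, Bnip3 and Ldha, each with an adjusted exact permutation p of 0.0139, and 0.83, 0.81 and 0.55 without 2 embryos. The scaled rho passed for Pdk1 and Bnip3 (0.87 and 0.88, adjusted exact permutation p of 0.0260 each) and not for Ldha (0.77, adjusted 0.0590), so the relation of Pgk1 and Ldha at E8.5 depends on the scaling and the measure. Slc2a1 ran the other way with r of -0.66 against Pgk1 (exact permutation p = 0.0701, adjusted 0.140) and rho of -0.65 (adjusted 0.148), and -0.76 without 2 embryos, which did not pass. After scaling r was -0.49 (adjusted exact permutation p = 0.340) and rho -0.75 (adjusted 0.0590).
At E9.5 (n = 8 embryos) Ldha followed Pgk1, with r of 0.89 (exact permutation p = 0.00347, adjusted 0.0174), rho of 0.93 (adjusted 0.0174) and r of 0.91 without 2 embryos, and r of 0.96 after scaling (adjusted exact permutation p = 0.0139). Pdk1 gave r of -0.66 (exact permutation p = 0.167, adjusted 0.238), rho of -0.81 (adjusted 0.0868) and r of -0.69 without 2 embryos, but r of -0.07 and rho of -0.36 after scaling. Bnip3 gave r of -0.01 (exact permutation p = 0.991), rho of 0.10 and r of 0.20 without 2 embryos. Pgk1 and Slc2a1 gave r of 0.55 (exact permutation p = 0.158, adjusted 0.238), rho of 0.55 (adjusted 0.293) and r of 0.70 without 2 embryos. After scaling r was 0.77 (adjusted exact permutation p = 0.0590) and rho 0.88, which passed (adjusted 0.0260). Whether the relations differ between the ages was not tested. Points of a relation share their library, so anything that moves the whole library moves both genes.
The 3 E8.5 embryos with the highest erythroid marker means (log2 5.11 in Myo10_m1J 2, 4.56 in Myo10_m1J 4 and 4.16 in Myo10_WT 1, against 1.70 to 3.10 in the other 6) held the 3 highest values of 6 members tested, namely Hk1, Pfkp, Tpi1, Pgk1, Pdk1 and Bnip3. That order held for 1.39% of the 12560 genes tested and was looked for after the values were seen. The same 3 embryos also had the 3 highest heart muscle marker means (log2 5.70, 5.57 and 6.15, against 3.81 to 5.44 in the other 6). Erythroid content and heart muscle content can therefore not be told apart in this order. Ldhb was lowest in the same 3 embryos, also seen after the fact, and the share of all genes with that order was not computed. Across the other 6 E8.5 embryos r with Pgk1 was 0.86 for Pdk1, 0.99 for Bnip3 and 0.88 for Ldha, as deposited. For these values the genotype mean was not removed and no test was run, so they are a different measure from the r given above. The erythroid mean and Slc2a1 gave r of -0.51 at E8.5 (exact permutation p = 0.269, adjusted 0.337), rho of -0.53, and r of -0.12 without 2 embryos, and r of 0.30 at E9.5 (exact permutation p = 0.564, adjusted 0.627). After scaling these were -0.74 (adjusted exact permutation p = 0.141) and 0.57 (adjusted 0.283), neither of which passed.

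**Figure D5:**
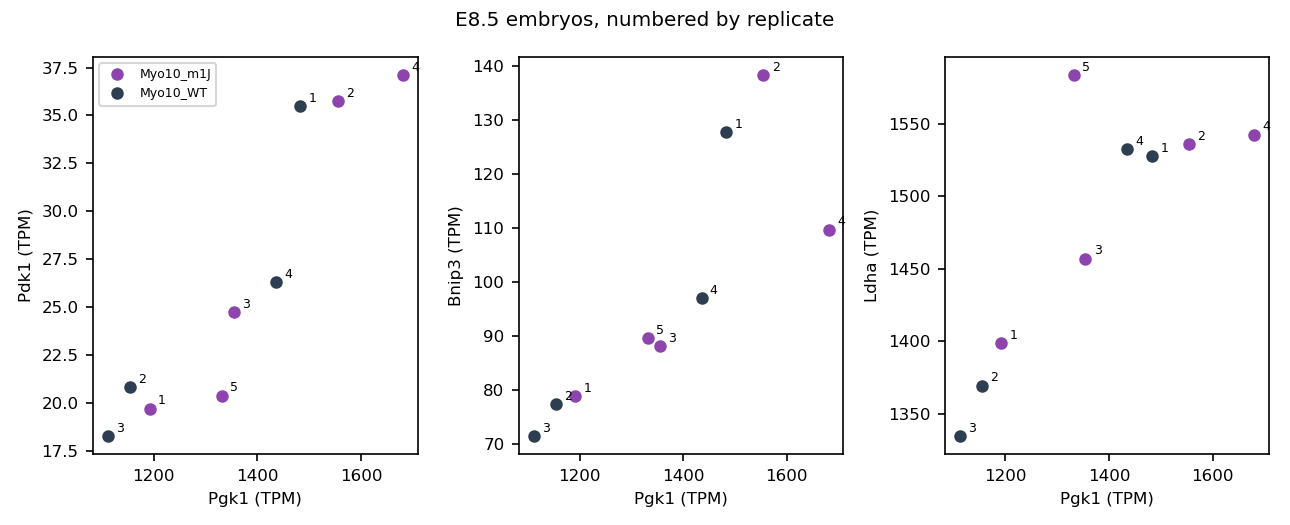
Pdk1, Bnip3 and Ldha against Pgk1 (all in TPM) in the 9 E8.5 embryos, a point for each embryo with its replicate number, Myo10_m1J in purple and Myo10_WT in dark blue. Myo10_m1J 2 and 4 and Myo10_WT 1 hold the 3 highest Pdk1 values and Myo10_WT 3 the lowest Pgk1 at 1111 TPM.

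The rest of the pathway was read from lists of other genes. In the Disp1 comparison no gene passed in any of the lists (limma), with 0 of 26 other glucose handling genes, 0 of 11 of pyruvate entry, 2 of 33 other hypoxia genes, 0 of 11 of the HIF pathway and 0 of 33 of the citric acid cycle and respiratory chain at an unadjusted p under 0.05, both of them lower. Of all genes 1.03% were higher and 1.23% lower at that threshold. The smallest p was that of Stc2, a secreted glycoprotein (-0.28, SE 0.10). In the Myo10 comparison again none passed, with 2 of 27 other glucose handling genes and 1 of 31 other hypoxia genes at an unadjusted p under 0.05, all lower, and 0 in the other lists. In that comparison 0.342% of all genes were higher and 6.46% lower at this threshold, so these counts are not read as particular to the lists. The smallest p of the hypoxia list there was that of Zfp395 (-0.53, SE 0.19).
Between the ages, all 33 genes tested of the citric acid cycle and respiratory chain were higher at E9.5 in both pairs as deposited, where 77.5% of all genes were higher in the mutants and 69.4% in the wild types. After scaling, where 36.5% of all genes were higher and 36.1% lower in the mutants and 37% and 35.3% in the wild types, 17 of the 33 were higher and 3 lower in the mutants, and 16 higher and 2 lower in the wild types. Mdh2, mitochondrial malate dehydrogenase, averaged 323 TPM in Disp1_CS_INDEL and 90.8 TPM in Myo10_m1J, and 319 TPM in Disp1_WT and 100 TPM in Myo10_WT, and its difference was 1.83 and 1.66 as deposited and 0.95 and 0.98 after scaling. For pyruvate entry 10 of 11 genes were higher in both pairs as deposited, and after scaling 4 were higher and 4 lower in the mutants and 5 higher and 3 lower in the wild types, close to those shares of all genes in the mutants. Mpc1, a subunit of the mitochondrial pyruvate carrier, averaged 16.4 TPM in Disp1_CS_INDEL and 2.38 TPM in Myo10_m1J, and 16.2 TPM in Disp1_WT and 2.49 TPM in Myo10_WT (1.66 and 1.73 after scaling). Pdk2, another kinase that holds back pyruvate dehydrogenase, averaged 8.97 TPM in Disp1_CS_INDEL and 1.19 TPM in Myo10_m1J, and 7.93 TPM in Disp1_WT and 1.61 TPM in Myo10_WT (1.54 and 1.28 after scaling).
Of the HIF pathway 9 of 11 genes in the mutants and 10 of 11 in the wild types were higher as deposited (77.5% and 69.4% of all genes). After scaling 8 were higher and 1 lower in each pair. All genes then had 36.5% higher and 36.1% lower in the mutants, and 37% and 35.3% in the wild types. Arnt2, a partner subunit of HIF-1 alpha, averaged 32.3 TPM in Disp1_CS_INDEL and 8.47 TPM in Myo10_m1J, and 29.5 TPM in Disp1_WT and 10.2 TPM in Myo10_WT (0.99 and 0.80 after scaling). Of 33 other hypoxia genes 23 in the mutants and 22 in the wild types were higher as deposited and none lower, where 8.28% and 10.2% of all genes were lower. After scaling 8 were higher and 13 lower in the mutants and 9 higher and 13 lower in the wild types, beside the same shares of all genes. Zfp395 averaged 36.8 TPM in Disp1_CS_INDEL and 4.21 TPM in Myo10_m1J, and 37.9 TPM in Disp1_WT and 6.73 TPM in Myo10_WT (2.07 and 1.75 after scaling).
Of 28 other glucose handling genes, 22 were higher and 3 lower in the mutants and 19 higher and 3 lower in the wild types as deposited, which is near the shares of all genes (77.5% and 8.28% in the mutants, 69.4% and 10.2% in the wild types). After scaling these counts were 9 and 11 in the mutants (36.5% and 36.1% of all genes) and 11 and 10 in the wild types (37% and 35.3%). Slc2a2, the transporter GLUT2 of liver and yolk sac endoderm, averaged 0.116 TPM in Disp1_CS_INDEL and 17.9 TPM in Myo10_m1J, and 1.12 TPM in Disp1_WT and 22.1 TPM in Myo10_WT (-4.45 and -4.11 after scaling). The Disp1_WT mean was carried by embryo 3 at 4.01 TPM, against 0.0921, 0.270 and 0.111 TPM in the other embryos, and the difference in the wild types was -4.54 after scaling without it. Markers of yolk sac endoderm moved with Slc2a2. Of the 12 markers 12 were lower at E9.5 in the mutants and 11 in the wild types, their sums were 52.4 to 83.4 TPM in Disp1_CS_INDEL, 62.4 to 1100 TPM in Disp1_WT, 740 to 2253 TPM in Myo10_m1J and 860 to 2659 TPM in Myo10_WT, and no marker stayed below 0.1 TPM in every embryo of a group. The part of yolk sac tissue in this difference was not tested.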

How the data were processed

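RNA of 17 whole mouse embryos was measured by RNA-seq (single flash-frozen embryos, TruSeq RNA libraries and NovaSeq sequencing, per the labels' protocols). The authors deposited 1 table of TPM values per gene symbol. The build was GRCm39 (mm39), per the submitters' processing notes, and for the aligner and the quantifier the sources used here give no name. Sequencing depth cannot be read from TPM, so counting error is left out.

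Values were analysed as log2(TPM + 1), where the pseudocount of 1 understates changes of low genes. A gene entered a comparison when 4 or more of its libraries reached 1 TPM, and all such genes were fitted together with limma 3.58.1 (R 4.3.3, mean-variance trend, Benjamini-Hochberg threshold 0.05). Single values and correlations were tested by exact two-sided permutation (SciPy 1.17.1), permuting embryos within genotype for correlations (576 orders at E9.5, 2880 at E8.5). The model was checked on simulated data. Values in every embryo are given for at most 8 called members of a comparison by smallest p, or otherwise for the 5 with the smallest p, and other members shown in full were chosen after their values were seen. Promoter windows came from RefSeq (GRCm38.p6), and no coordinates were moved between builds. Alternatives were another pseudocount (0.1), other filters (none, or a mean of 5 TPM), other scalings, a joint model, a replicate block, an erythroid covariate and leaving out each embryo. Members and lists were chosen with earlier results of these data known.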

Additional observations from a re-analysis of the deposited data

Results flagged for a closer look

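Within groups of 4 or 5 embryos, 6 values stood apart from the others of their group by a wide gap, of 132 groups of values examined. Chance flags about 1 in 20 groups, which is 6.6 here. In Disp1_CS_INDEL embryo 3, Eno1 stood at 1684 TPM, against 906 to 975 TPM in the other 3, and Ldha at 2311 TPM, against 2050 to 2082 TPM. Egln3 was low in Disp1_CS_INDEL embryo 4 at 11.2 TPM, against 13.3 to 13.5 TPM. In Myo10_m1J embryo 2, Pfkfb4 stood at 5.12 TPM, against 2.41 to 3.03 TPM in the other embryos, and P4ha1 at 72.3 TPM, against 50.2 to 54.0 TPM. That embryo also had the highest decidua and trophoblast marker mean at E8.5 (log2 2.13). Hif1a stood at 94.6 TPM in Myo10_WT embryo 2, against 77.9 to 80.5 TPM in the other 3.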

How the results depend on the processing

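No member passed in the Disp1 comparison, the Myo10 comparison or the difference of their effects under any alternative run. After median-of-ratios scaling the members' median was 0.14 in the Myo10 comparison, where Hk2 was 0.0089, Gapdh 0.083 and Hif1a 0.072, and 0.17 for the difference of effects. The age split moved to 6 higher and 19 lower in the mutants (median -0.40) and 8 higher and 15 lower in the wild types (median -0.22). Without structural RNAs it was 7 and 16 (-0.22) in the mutants and 9 and 13 (-0.13) in the wild types. Without histone genes as well, an alternative chosen after seeing the data, it was 7 and 20 (-0.41) and 7 and 18 (-0.32). The members' summed share became 1.78% in Myo10_m1J and 1.69% in Myo10_WT without structural RNAs, and 2.03% and 1.93% without histones as well. Without haemoglobin and mitochondrial genes it was 1.86% in Disp1_CS_INDEL and 1.98% in Disp1_WT. The sum of Eno1 and Eno1b gave -0.15 in the Disp1 comparison (Eno1 alone 0.12), 2.00 in the age comparison of mutants (0.02) and 2.09 in that of wild types (-0.16). Pgk1 and Bnip3 at E9.5 gave r of 0.38 after scaling and 0.20 without 2 embryos, Pgk1 and Ldha at E8.5 0.90 after scaling, and the erythroid mean and Slc2a1 at E9.5 -0.049 without 2 embryos. The scaled sum of Eno1 and Eno1b, Slc2a2 without Disp1_WT embryo 3 and Aldoc in the difference of effects with each embryo left out (0.42 to 0.77) were also added after seeing the data. The cause was not tested, beyond the removal of the named genes. Leaving out each embryo gave medians of -0.08 to -0.03 (Disp1), -0.13 to 0.02 (Myo10, above 0 only without Myo10_WT embryo 1), 0.44 to 0.51 (age, mutants, with 18 to 20 higher and 6 to 7 lower), 0.33 to 0.57 (age, wild types, with 18 to 21 higher and 5 to 7 lower) and -0.08 to 0.09 (difference of effects). Equal replicate numbers were not taken as pairs, and deviations of same-numbered embryos correlated at -0.29 to 0.46. In the Disp1 and Myo10 comparisons number 4 (0.35 and 0.46) lay above its highest value with another number (-0.069 and 0.15). Numbers 1, 2 and 3 lay below theirs. Whether embryos were paired was not tested. With the replicate block 0 members passed in the Disp1 or Myo10 comparison (medians -0.056 and -0.046), and 18 higher and 7 lower passed in the age comparison of mutants (median 0.46) and 21 and 6 in that of wild types (0.44).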
